A study of Mus musculus with 12 samples.

Results

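Ly6a, Ly6c1, Ly6c2 and Ly6e encode small surface proteins of the lymphocyte antigen 6 (Ly6) family and were followed through RNA sequencing of mouse CD8 T cells. They were chosen by symbol, 4 of the 48397 symbols in the count table, and all 4 passed the filter on low counts. Ly6 proteins consist of a compact, disulphide-bonded domain that is held in the outer leaflet of the plasma membrane by a glycosylphosphatidylinositol (GPI) lipid anchor, with no part inside the cell. In the mouse, Ly6a is the stem cell antigen Sca-1, which T cells also raise on activation and in response to interferon. Antibodies to Ly6C, the product of Ly6c1 and Ly6c2, are used to mark memory CD8 T cells and inflammatory monocytes, and Ly6e is an interferon-inducible gene of lymphocytes that limits the entry of several viruses.

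The libraries came from Kaede-transgenic mice with YUMMER1.7 tumors, YUMMER1.7 being a mouse melanoma line. Kaede is a fluorescent protein that violet light turns from green to red, and tumors were converted on day 11 and tissues taken on day 12. All 3 groups were sorted as CD44+ CD8+, CD44 marking T cells that have met antigen, and each had 4 libraries. The tumor-retained group was Kaede red in the tumor, the egressed group was Kaede red in the tumor-draining lymph node, and the spleen group, sorted without a Kaede gate named in the labels, stood for circulating cells. The transgene was carried by the mice of every group, and the labels give neither its promoter nor the animals' age, sex or strain background. The labels name 4 mice but do not tie libraries of different tissues to an animal, so the p-values measure the spread between these libraries.

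Depth was 22.7 to 36.3 M counts (M, mega) per library. Every spleen library had a count for at least 30658 genes (highest 32165). No egressed library exceeded 25916 such genes (lowest 14927), and no tumor-retained library exceeded 21306 (lowest 15296). Both spleen comparisons therefore also set libraries with more detected genes against libraries with fewer. What this did to the calls against spleen was not tested. Markers of CD8 T cells were present in every library, with Cd8a between 649 and 1146 CPM (counts per M counts of the library, with TMM scaling, as are all CPM here). Cd8b1 was 1743 ± 130 CPM in spleen, 1368 ± 61.6 in egressed and 837 ± 270 in tumor-retained cells (SD, n = 4). The summed level of the 16 monocyte and macrophage markers was 3280 CPM in tumor-retained library 3 and 4950 CPM in tumor-retained library 4, against 193 to 375 CPM in the other 10 libraries. The 11 stromal markers summed to 5782 and 2804 CPM in these same libraries and to at most 72.0 CPM elsewhere. Results are therefore also given without tumor-retained libraries 3 and 4 where this matters. In sorted bulk samples, a change in the share of cells that carry a transcript and a change in the transcript per cell cannot be told apart.

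The 4 genes lie close together on chromosome 15 (GRCm38/mm10, GENCODE M21), with Ly6e at chr15:74955051-74959905 on the plus strand, Ly6a at chr15:74994877-74998031, Ly6c1 at chr15:75044018-75048830 and Ly6c2 at chr15:75108158-75111970, the last 3 on the minus strand. How well their reads can be told apart depends on their sequences, so the first 300 coding bases of the 3 close relatives are shown, 5′ to 3′, from GENCODE M21 transcripts. Capitals mark the bases at which Ly6c1 and Ly6c2 differ from each other and, in Ly6a, the bases that differ from Ly6c2.
Ly6c1: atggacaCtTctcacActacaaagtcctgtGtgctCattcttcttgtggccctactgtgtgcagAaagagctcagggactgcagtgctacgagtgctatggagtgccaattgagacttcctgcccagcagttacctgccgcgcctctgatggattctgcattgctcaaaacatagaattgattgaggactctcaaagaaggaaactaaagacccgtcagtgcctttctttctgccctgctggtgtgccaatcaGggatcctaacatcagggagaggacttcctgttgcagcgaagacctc
Ly6c2: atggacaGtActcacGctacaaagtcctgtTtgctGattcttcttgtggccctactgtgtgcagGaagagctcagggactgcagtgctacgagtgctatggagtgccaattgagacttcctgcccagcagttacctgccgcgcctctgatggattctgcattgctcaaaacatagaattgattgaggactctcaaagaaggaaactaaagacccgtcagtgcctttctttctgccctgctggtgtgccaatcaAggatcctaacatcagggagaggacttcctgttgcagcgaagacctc
Ly6a: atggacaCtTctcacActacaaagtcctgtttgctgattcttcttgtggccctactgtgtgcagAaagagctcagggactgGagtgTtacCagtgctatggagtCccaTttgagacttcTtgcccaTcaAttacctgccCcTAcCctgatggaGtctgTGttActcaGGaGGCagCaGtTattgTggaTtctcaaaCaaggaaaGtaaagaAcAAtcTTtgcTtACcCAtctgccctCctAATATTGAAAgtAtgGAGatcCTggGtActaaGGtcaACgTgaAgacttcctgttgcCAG
Ly6c1 and Ly6c2 differed at 7 of these 300 bases, and over the whole coding sequence 384 of 393 bases were the same (97.7%). Ly6a matched Ly6c2 at 81.6% and Ly6c1 at 81.8% of aligned coding positions, and Ly6e matched the other 3 at 49.8% to 52.7%. Of the 50-base windows along the main transcript, 33.0% in Ly6c2 (255 of 773) and 36.7% in Ly6c1 (292 of 795) also occurred in another gene's transcript. The share was 8.05% (62 of 770) for Ly6a, whose windows were shared with Ly6c1, Ly6c2, Ly6i and I830127L07Rik, and 0 of 2232 windows of Ly6e were shared. At 100 bases, 114 of 723 windows of Ly6c2 and 114 of 745 of Ly6c1 were common to that pair, and none of Ly6a or Ly6e was shared. Nothing in the sources used here gives the read length or the handling of reads that match several genes, so the split between Ly6c1 and Ly6c2 is uncertain.

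Ly6a, the gene of Sca-1, was lowest in spleen, intermediate in egressed and highest in tumor-retained cells. Its level was 93.0, 114.8, 89.0 and 87.8 CPM in spleen libraries 1 to 4, or 96.2 ± 12.6 CPM (SD, n = 4). The egressed libraries held 295.8, 233.5, 270.2 and 222.1 CPM, a mean of 255 ± 33.9 (SD, n = 4). The tumor-retained libraries held 637.1, 424.0, 454.7 and 362.4 CPM, a mean of 470 ± 118 (SD, n = 4). Every egressed library lay above every spleen library and below every tumor-retained library, so that none of the groups overlapped.

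**Figure D1:**
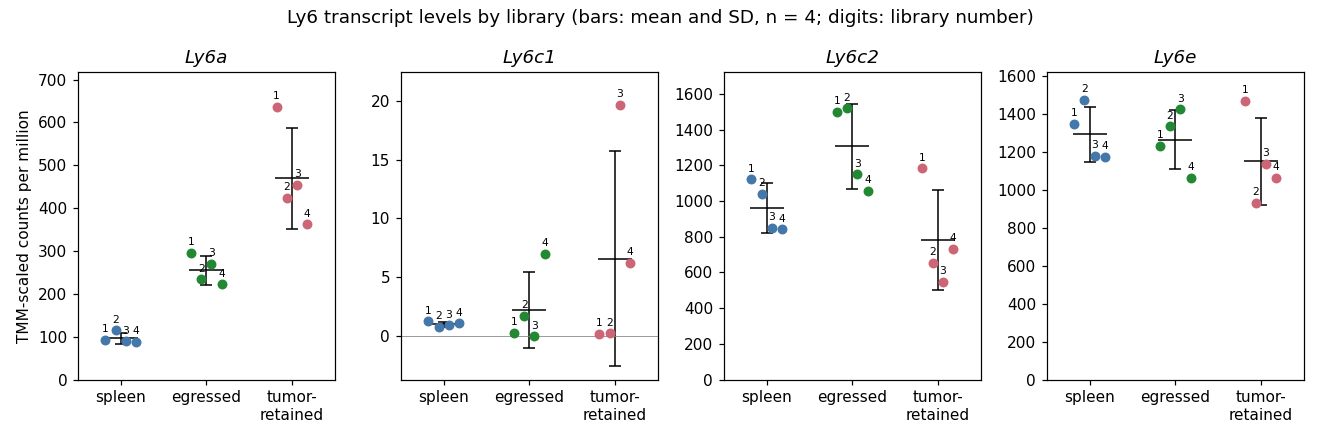
Level in TMM-scaled CPM of Ly6a, Ly6c1, Ly6c2 and Ly6e in each library (points, with library numbers), by group, with the mean and SD of 4 libraries as black bars and a separate linear axis per gene. The 3 groups are apart for Ly6a (at most 114.8 in spleen, 222.1 to 295.8 in egressed and at least 362.4 CPM in tumor-retained cells) and overlap for the other genes.

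In edgeR's quasi-likelihood fit across 21457 genes, with Benjamini-Hochberg adjustment, Ly6a rose in tumor-retained against spleen cells by 2.29 ± 0.19 on the log2 scale (SE), a 4.88-fold difference (95% confidence interval of the log2 value 1.874 to 2.701, adjusted p = 8.66e-05). It rose in egressed against spleen cells by 1.41 ± 0.18, or 2.66-fold (interval 1.01 to 1.81, adjusted p = 0.0114). It was lower in egressed than in tumor-retained cells, with a log2 fold change of -0.88 ± 0.18 (interval -1.28 to -0.48, adjusted p = 0.0452), which is 1.84-fold higher in the tumor. For scale, 2.41% of all tested genes passed in tumor-retained against spleen, 0.368% in egressed against spleen and 1.1% in egressed against tumor-retained cells. Groups that did not overlap were more common, at 20.3%, 14.1% and 6.35% of tested genes in that order. Ordered by p, Ly6a was the 9th gene in tumor-retained against spleen, the 10th in egressed against spleen and the 191st in egressed against tumor-retained cells.

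The 3 calls for Ly6a were not equally firm. Tumor-retained against spleen passed in 22 of 22 other settings (highest adjusted p = 0.00139, edgeR, DESeq2 or limma). Egressed against spleen passed in 17 of 22, and it was lost with limma voom and without spleen library 1, 3 or 4 or egressed library 1. Egressed against tumor-retained passed in 7 of 22 settings: leaving out any spleen library, any egressed library or tumor-retained library 3 raised the edgeR adjusted p to as much as 0.119, while the log2 fold change stayed between -0.99 and -0.71. Without tumor-retained libraries 3 and 4, which held the macrophage and stromal transcripts, the difference was -1.05 (edgeR, adjusted p = 0.0389), and tumor-retained against spleen was 2.45 (adjusted p = 0.000204).

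**Figure D2:**
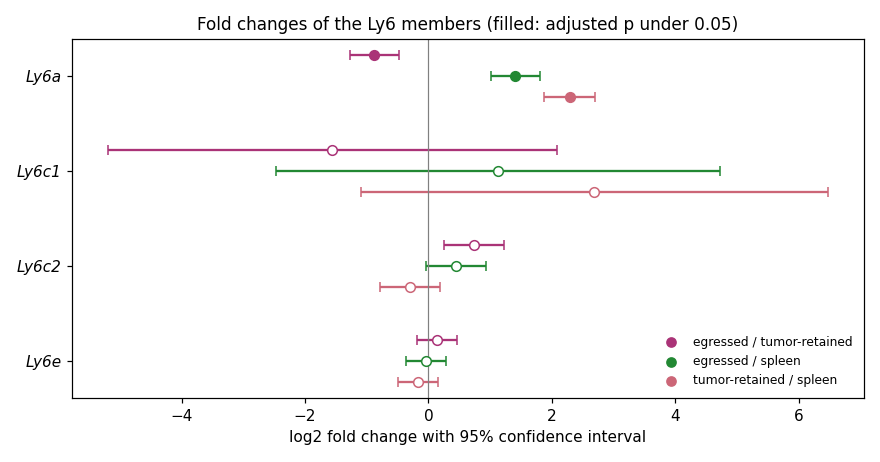
Log2 fold change of each member in the 3 comparisons (points) with its 95% confidence interval (bars), from 1 edgeR fit. The 3 filled points, at adjusted p under 0.05, all belong to Ly6a, and the intervals of Ly6c1 span several log2 units.

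Ly6c2, a source of the Ly6C antigen on mouse T cells and monocytes, was abundant in every library. Spleen libraries 1 to 4 held 1122, 1039, 848.5 and 841.2 CPM (963 ± 140, SD, n = 4), and egressed libraries held 1499, 1520, 1149 and 1056 CPM (1306 ± 238). Tumor-retained libraries held 1184, 655.4, 548.8 and 731.6 CPM (780 ± 280). Egressed cells had the highest mean, but tumor-retained library 1 lay above egressed libraries 3 and 4, and spleen library 1 above egressed library 4, so the groups overlapped.

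No comparison passed for Ly6c2. Egressed cells were above tumor-retained cells by 0.74 ± 0.22 on the log2 scale (SE, interval 0.26 to 1.23, edgeR adjusted p = 0.133). Egressed against spleen was 0.44 ± 0.22 (interval -0.05 to 0.92, adjusted p = 0.671), and tumor-retained against spleen was -0.30 ± 0.22 (interval -0.79 to 0.18, adjusted p = 0.639). The egressed against tumor-retained call turned with tumor-retained library 1: without it the difference was 1.00 (edgeR adjusted p = 0.0106). Summing Ly6c1 and Ly6c2 into a single row, which removes the uncertain split, gave 0.73 (adjusted p = 0.132), 0.44 and -0.29 for these comparisons. Over 23 other settings, egressed against tumor-retained lay between 0.51 and 1.15 (adjusted p up to 0.421, edgeR, DESeq2 or limma), and 3 of the 23 passed. Tumor-retained against spleen lay between -0.54 and -0.085 (adjusted p up to 0.935), and 1 of the 23 passed.

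Ly6e, the interferon-inducible member, had group means between 1149 and 1292 CPM. Spleen libraries held 1346, 1472, 1177 and 1172 CPM (1292 ± 145, SD, n = 4), egressed libraries 1232, 1333, 1423 and 1063 CPM (1263 ± 155) and tumor-retained libraries 1466, 931.1, 1135 and 1063 CPM (1149 ± 228). The groups overlapped throughout. The log2 fold change was 0.14 ± 0.15 for egressed against tumor-retained (SE, interval -0.19 to 0.46, edgeR adjusted p = 0.766), -0.03 ± 0.15 for egressed against spleen (interval -0.36 to 0.29) and -0.17 ± 0.15 for tumor-retained against spleen (interval -0.49 to 0.16, adjusted p = 0.744). The intervals leave room for differences of up to 0.49 on this scale, and the sign of both spleen comparisons turned with the scaling: with relative log expression factors they were 0.13 and 0.0084, a scaling that moved the median of all genes by 0.16 and 0.19.

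Ly6c1, the near-copy that mouse endothelial cells also express, was low in most libraries. Spleen libraries held 1.27, 0.80, 0.92 and 1.09 CPM, from 23 to 37 counts. Egressed libraries held 0.27, 1.71, 0 and 6.98 CPM, and tumor-retained libraries held 0.22, 0.25, 19.7 and 6.22 CPM. The 3 highest libraries were tumor-retained 3 (611 counts), tumor-retained 4 (210 counts) and egressed 4 (168 counts), while egressed library 3 had 0 counts and both remaining tumor-retained libraries had 7 counts each.

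No comparison of Ly6c1 passed, with wide intervals. Egressed against tumor-retained was -1.56 ± 1.67 on the log2 scale (SE, interval -5.19 to 2.08, edgeR adjusted p = 0.756), and tumor-retained against spleen was 2.69 ± 1.74 (interval -1.09 to 6.47, adjusted p = 0.554). Without tumor-retained libraries 3 and 4 both changed sign, to 3.26 and -2.12. Egressed against spleen was 1.13 ± 1.65 (interval -2.47 to 4.73) and became -0.65 without egressed library 4.

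Ly6c1 made up a very small share of the Ly6c1 and Ly6c2 counts together. In spleen it was 0.0771% to 0.130%. In egressed libraries it was 0.0183%, 0.112%, 0% and 0.656%. For 0 of 35132 counts in library 3, the 95% Clopper-Pearson interval reaches up to 0.0105%. In tumor-retained libraries it was 0.0182%, 0.0387%, 3.46% (95% Clopper-Pearson interval 3.20% to 3.74%) and 0.843%. Exact 2-sided permutation tests of the group means gave p = 0.314 for egressed against tumor-retained, 0.943 for egressed against spleen and 0.429 for tumor-retained against spleen (n = 4 each, adjusted 0.643, 0.943 and 0.643). The difference between tumor-retained and spleen cells, 0.983 percentage points, was 0.193 without tumor-retained library 3, and that between egressed and tumor-retained cells went from -0.893 to -0.103. The egressed against spleen difference of 0.0897 turned to -0.0636 without egressed library 4. Intervals and limits cover counting error only.

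Per kilobase of main transcript, which allows genes to be compared, Ly6c2 had the highest and Ly6c1 the lowest mean in spleen and egressed cells. Ly6c2 stood at 1171 ± 171 CPM per kb in spleen, 1589 ± 290 in egressed and 949 ± 340 in tumor-retained cells (SD, n = 4). Ly6e followed in spleen and egressed cells at 566 ± 63.5 and 553 ± 67.8 CPM per kb, and Ly6a came next at 117 ± 15.4 and 312 ± 41.3. In tumor-retained cells Ly6a reached 573 ± 144 and Ly6e 504 ± 99.9 CPM per kb, levels that differed by less than their spread. The order among these 3 depends on the length used. Per kilobase of all annotated exons, Ly6c2 and Ly6e differed by less than their spread in spleen (351 ± 51.2 against 341 ± 38.3), egressed cells had 477 ± 86.9 against 334 ± 40.8, and tumor-retained cells had Ly6a at 390 ± 98.0, Ly6e at 304 ± 60.2 and Ly6c2 at 285 ± 102. Together the 4 genes took 0.199% to 0.253% of all counts in spleen libraries. Their share was 0.249% to 0.328% in egressed libraries, and tumor-retained libraries ranged from 0.201% to 0.319%.

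Ratios of 2 members within a library do not depend on scaling. The log2 ratio of Ly6a to Ly6c2 counts was -3.32 ± 0.18 in spleen, -2.35 ± 0.26 in egressed and -0.70 ± 0.33 in tumor-retained cells (SD, n = 4). The ratio of Ly6a to Ly6e was -3.75 ± 0.07, -2.31 ± 0.20 and -1.30 ± 0.18 in that order. Neither ratio overlapped between any of the groups, each giving p = 0.0286 in an exact 2-sided permutation test in all 3 comparisons, the smallest that 4 libraries against 4 allow. Over the 18 ratios compared (6 pairs, 3 comparisons), the adjusted exact p was 0.0857, so 0 of 18 passed, against 6 of 18 at an unadjusted p under 0.05. With this smallest p, no ratio could pass after adjustment unless most of the 18 reached it. The 0 of 18 therefore does not show that the ratios were alike.

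Between tumor-retained and spleen cells the Ly6a to Ly6c2 ratio differed by 2.62 and the Ly6a to Ly6e ratio by 2.45 on the log2 scale. Ly6c2 against Ly6e was -0.43 ± 0.11 in spleen, 0.04 ± 0.26 in egressed and -0.60 ± 0.32 in tumor-retained cells (SD, n = 4). Egressed cells were 0.64 above tumor-retained and 0.47 above spleen cells (exact permutation p = 0.0571 each, adjusted 0.129), and tumor-retained against spleen was -0.17 (exact p = 0.314).

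**Figure D3:**
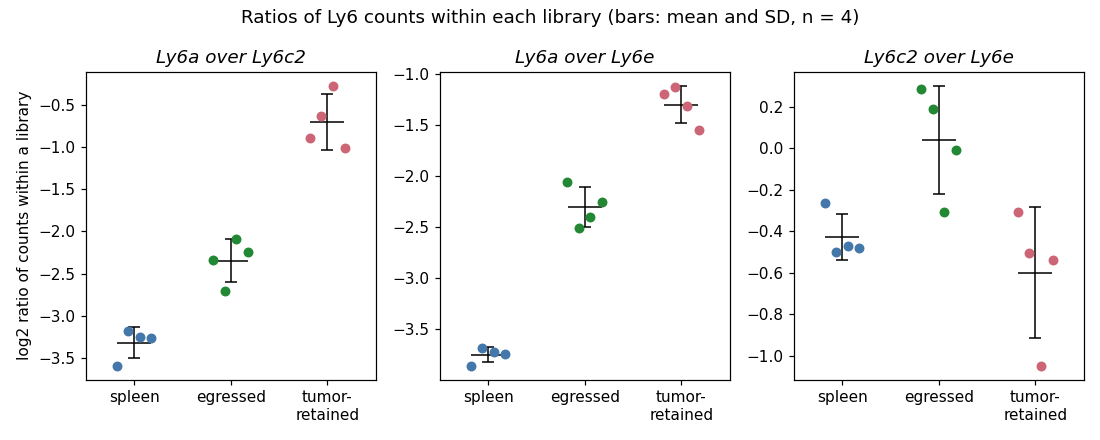
Log2 ratio of counts of 2 members within each library (points, linear axes that do not start at 0), with the mean and SD of 4 libraries as black bars. Ly6a over Ly6c2 goes from a mean of -3.32 in spleen to -0.70 in tumor-retained cells with no overlap, and Ly6c2 over Ly6e overlaps between the groups.

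Other genes of the Ly6 and urokinase receptor family were mostly low. Of 48 listed genes, 42 were in the table and 3 of these had no count in any library. Of the family, 20 genes were tested, and apart from the members 15 had a group mean of at least 1 CPM. In egressed against tumor-retained, egressed against spleen and tumor-retained against spleen cells, edgeR called 2, 1 and 2 of the 20. Of all tested genes, 1.1%, 0.368% and 2.41% passed in that order. At an unadjusted p under 0.05 the family had 5, 3 and 2 genes, beside 17.4%, 8.79% and 16.7% of all tested genes. DESeq2, which called more genes than edgeR over all tested genes, called 4, 1 and 2, and limma voom 0, 0 and 1. Across the comparisons 2 family genes passed with edgeR, Ly6a and Plaur, the latter encoding the GPI-anchored urokinase receptor. Plaur was 5.63 to 8.59 CPM in spleen, at most 14.3 CPM in egressed and 41.0, 50.4, 366.7 and 385.5 CPM in tumor-retained libraries, with no overlap between tumor-retained cells and the others. Plaur rose in tumor-retained against spleen cells by 4.92 ± 0.73 on the log2 scale (SE, edgeR adjusted p = 0.00339) and was lower in egressed than in tumor-retained cells by -4.23 ± 0.71 (adjusted p = 0.0164). The latter call was lost without egressed library 1 or 3 (adjusted p up to 0.0632), and both were lost with limma voom (4.31, adjusted p = 0.269, and -3.68, adjusted p = 0.368). Without tumor-retained libraries 3 and 4, which held most of the Plaur counts, the values were 2.69 (adjusted p = 0.0277) and -2.01 (adjusted p = 0.126).

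Among low family genes, Ly6i was high in the libraries that were high for Ly6c1. Ly6d and Gpihbp1 were so only in part, and other low family genes peaked in other libraries. Ly6i, the neighbour of Ly6a, was 20.6 and 9.10 CPM in tumor-retained libraries 3 and 4, 7.89 CPM in egressed library 4 and at most 1.99 CPM elsewhere. Ly6d, a marker of early B lineage cells, was 13.6 and 1.93 CPM in tumor-retained libraries 3 and 4, up to 2.72 CPM in spleen and at most 0.0379 CPM in the rest. Gpihbp1, which carries lipoprotein lipase across capillary endothelium, was 34.4 CPM in tumor-retained library 3 and at most 0.146 CPM in every other library. Lypd6b ran the other way, at 13.9 to 40.3 CPM in 9 libraries against 0.0415, 0.290 and 0.0889 CPM in egressed library 4 and tumor-retained libraries 3 and 4.

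Markers of other cells were high in the same tumor-retained libraries, and their part in the result was not tested. Lyz2, a lysozyme of myeloid cells, was 758 and 951 CPM in tumor-retained libraries 3 and 4, 68.1 CPM in egressed library 4 and at most 12.0 CPM elsewhere. The 14 endothelial markers summed to 585 CPM in tumor-retained library 3, against 87.1 to 187 CPM in the other libraries, 106 CPM in tumor-retained library 4 among them. The 10 granulocyte markers summed to 38.4 and 57.6 CPM in tumor-retained libraries 3 and 4 and at most 9.14 CPM elsewhere, and S100a8 was at 0 in 9 libraries. Egressed library 4 did not stand apart in the summed macrophage markers (337 CPM) or stromal markers (22.1 CPM). With edgeR, Ccr2 passed among the 16 macrophage markers, higher in tumor-retained than in egressed and spleen cells, and Col3a1 among the 10 tested stromal markers, in tumor-retained against spleen cells. In egressed against tumor-retained and tumor-retained against spleen cells, DESeq2 called 8 and 6 macrophage and 8 and 7 stromal markers, and limma voom called 0 of either list. DESeq2 also called more genes than edgeR over all tested genes in both comparisons. With edgeR, 1.1% and 2.41% of all tested genes passed in them. With edgeR, 10 and 8 macrophage and 9 and 7 stromal markers had an unadjusted p under 0.05, beside 17.4% and 16.7% of all tested genes. Ccr2 in egressed against tumor-retained cells passed in 2 of 12 fits with a library left out, those without tumor-retained library 1 or 2 (adjusted p up to 0.0861 in the others), and Col3a1 in 4 of 12. Without tumor-retained libraries 3 and 4, Ccr2 passed against spleen alone (1.72, adjusted p = 0.0177) and Col3a1 did not pass (adjusted p = 0.266). CD8 T cell identity genes summed to 6155 and 7720 CPM in tumor-retained libraries 3 and 4 and 9447 to 11505 CPM in the other 10. Of the 16 tested, edgeR called Cd8b1 in tumor-retained against spleen cells (-1.06, adjusted p = 0.0104), beside 2.41% of all tested genes. It called Lat in egressed against tumor-retained cells (1.00, adjusted p = 0.0272), beside 1.1%. Cd8b1 passed in 12 of 12 fits with a library left out and Lat in 4. Without tumor-retained libraries 3 and 4 they were -0.73 (edgeR adjusted p = 0.00503) and 0.76 (0.0777). Beside macrophage sums of 290, 375, 3280 and 4950 CPM in tumor-retained libraries 1 to 4, Ly6a was 637.1, 424.0, 454.7 and 362.4 CPM.

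**Figure D4:**
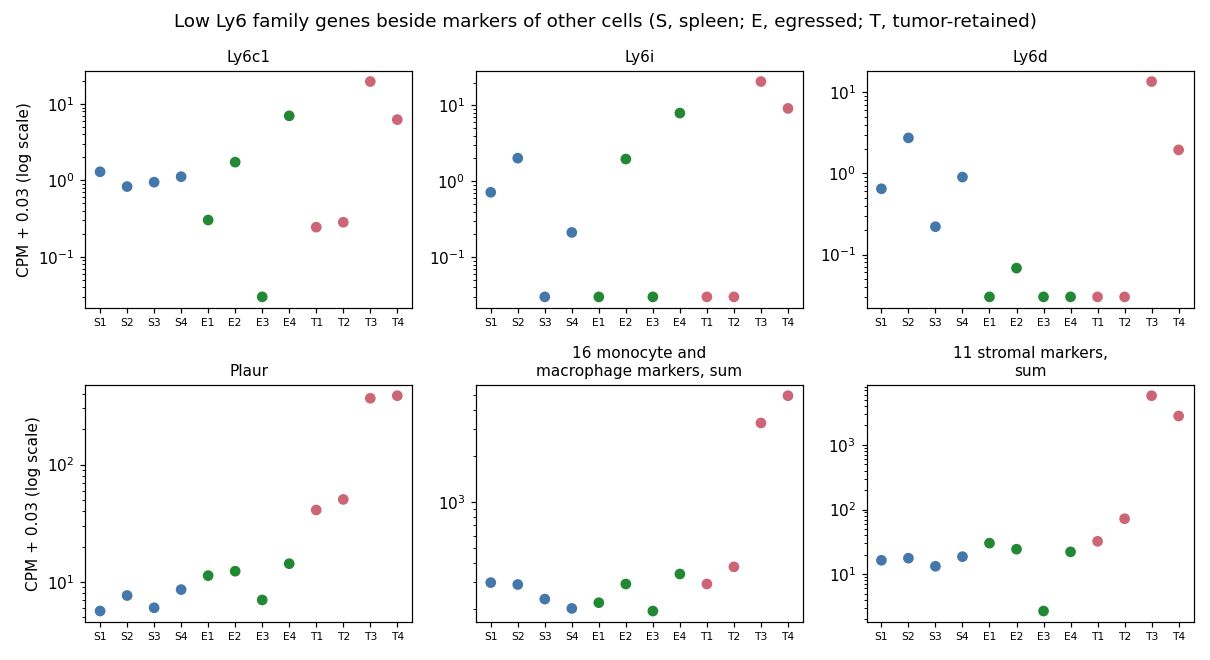
Ly6c1, Ly6i, Ly6d, Plaur and the summed monocyte and macrophage or stromal markers in each library, as CPM + 0.03 on a log axis (S, spleen; E, egressed; T, tumor-retained, with library numbers), where genes at 0 lie at the bottom. T3 and T4 lie above T1 and T2 in all 6 panels, and E4 is high for Ly6c1 (6.98 CPM) and Ly6i (7.89 CPM) but not for the marker sums.

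Genes of the setting in which the Ly6 proteins work are given from lists. Among 36 interferon response genes, the class to which Ly6a and Ly6e belong, 0 passed in egressed against tumor-retained cells, 0 in egressed against spleen cells and 1 rose in tumor-retained against spleen cells by edgeR. That gene, Isg20, an interferon-induced exonuclease, was 21.1 ± 5.0 CPM in spleen, 52.9 ± 2.8 in egressed and 63.2 ± 25.0 in tumor-retained cells (SD, n = 4), a log2 difference of 1.58 (adjusted p = 0.0234). The median log2 fold change of the list was 0.21, 0.45 and 0.02 in these comparisons, beside 0.00, -0.13 and -0.15 over all genes. At an unadjusted p under 0.05 the list had 4, 7 and 8 genes, beside 17.4%, 8.79% and 16.7% of all tested genes. After adjustment, 1.1%, 0.368% and 2.41% of all tested genes passed with edgeR. DESeq2 called 3, 3 and 6 of the list and limma voom 0, 1 and 2. Over all tested genes, too, DESeq2 called more than edgeR in each comparison. Isg20 lost its call when any spleen library was left out (adjusted p up to 0.108) and with voom (adjusted p = 0.0537).

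Interferon receptors and signalling genes numbered 15. Ifngr1, the ligand-binding chain of the interferon gamma receptor, was 553 ± 12.6 CPM in spleen, 847 ± 236 in egressed and 2385 ± 1049 in tumor-retained cells. It rose in tumor-retained against spleen cells by 2.11 (edgeR adjusted p = 0.00259) and was lower in egressed than in tumor-retained cells by -1.49 (adjusted p = 0.0356). Ifng, the cytokine itself, rose in tumor-retained against spleen cells by 3.43 (17.2 against 185 CPM, adjusted p = 0.0109), and Jak1, a kinase of these receptors, fell by 0.63 (adjusted p = 0.0436). In egressed against spleen cells 0 of the 15 passed with edgeR (3 at an unadjusted p under 0.05, 1 with DESeq2, 0 with limma voom). In egressed against tumor-retained cells DESeq2 called 2 and voom 0, and in tumor-retained against spleen cells they called 4 and 1. At an unadjusted p under 0.05 these comparisons had 3 and 5 of the 15 genes. Of all tested genes, 17.4% and 16.7% did so, and 8.79% in egressed against spleen cells. After adjustment, 1.1%, 2.41% and 0.368% of all tested genes passed with edgeR, in the same order. With voom both calls of Ifngr1 (adjusted p = 0.134 against spleen, 0.257 against egressed) and that of Ifng (0.135) were lost, and with DESeq2 that of Jak1 (0.0957). With single libraries left out, Ifngr1 against spleen passed in 12 of 12 fits, Ifng in 9 (lost without spleen library 2, 3 or 4), Jak1 in 2 (without egressed library 3 or tumor-retained library 1) and Ifngr1 in egressed against tumor-retained cells in 2 (without tumor-retained library 1 or 3).

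Of the GPI anchor machinery, which builds and attaches the lipid anchor, edgeR called 0 of 29 tested genes in each comparison. In egressed against tumor-retained, egressed against spleen and tumor-retained against spleen cells, 2, 0 and 1 had an unadjusted p under 0.05, beside 17.4%, 8.79% and 16.7% of all tested genes, while DESeq2 called 1, 0 and 0 and limma voom 0, 0 and 1. Of 15 other GPI-anchored lymphocyte proteins, Cd52, a small glycoprotein, and Cd160, a receptor of activated CD8 T cells, rose in egressed against spleen cells. This list had 7, 2 and 7 genes at an unadjusted p under 0.05, in the order of comparisons just given. After adjustment edgeR called 1, 2 and 2 of the 15, beside 1.1%, 0.368% and 2.41% of all tested genes. DESeq2, which called more genes than edgeR over all tested genes, called 3, 2 and 5, and limma voom 2, 2 and 4. Cd52 was 895 ± 37.5 CPM in spleen, 1398 ± 141 in egressed and 1006 ± 85.6 in tumor-retained cells, up 0.64 in egressed against spleen (adjusted p = 0.0259). Cd160 was 67.8 ± 18.7, 211 ± 20.4 and 206 ± 65.4 CPM, up 1.64 in egressed (adjusted p = 0.0209) and 1.60 in tumor-retained against spleen cells (adjusted p = 0.00442). Art2b, an ADP-ribosyltransferase of T cells, was 135 ± 26.1 CPM in spleen, 71.3 ± 38.4 in egressed and 1.68 ± 1.22 in tumor-retained cells, lower in the tumor than in spleen by -6.33 (adjusted p = 0.00233) and 5.41 higher in egressed than in tumor-retained cells (adjusted p = 0.0119). Art2b and Cd160 in tumor-retained against spleen cells kept their calls in 12 of 12 fits with a library left out. With limma voom, Art2b in egressed against tumor-retained cells missed the threshold (adjusted p = 0.0588). The egressed against spleen call was lost without any spleen or egressed library for Cd52, and without spleen library 1, 3 or 4 or egressed library 1 or 2 for Cd160 (edgeR adjusted p up to 0.137 for both).

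Circulating memory and effector CD8 genes, the company in which Ly6C is used as a marker, numbered 22. In tumor-retained against spleen cells 5 fell, among them Klf2, Klf3, Tcf7 and Lef1, and 1 rose (Gzma). The list median was -0.94 there, beside -0.15 over all genes. In egressed against tumor-retained cells 2 were higher, among them Klf2, a transcription factor of quiescent, recirculating T cells (664 ± 88.0 against 192 ± 85.8 CPM, SD, n = 4, log2 difference 1.79, edgeR adjusted p = 0.00921). In egressed against spleen cells 0 passed with edgeR (3 at an unadjusted p under 0.05, 1 with DESeq2 and 1 with limma voom). At an unadjusted p under 0.05 the list had 14 genes in egressed against tumor-retained and 12 in tumor-retained against spleen cells. Of all tested genes, 17.4% and 16.7% did so, and 8.79% in egressed against spleen cells. After adjustment, 1.1%, 2.41% and 0.368% of all tested genes passed with edgeR, in the same order. Klf2 and Lef1 kept their calls in 12 of 12 fits with a library left out, while Tcf7 and Klf3 kept theirs in 2 (without egressed library 3 or tumor-retained library 1) and Gzma in 7 (lost without spleen library 1, 3 or 4 or tumor-retained library 2 or 4). Gzma also missed the threshold with voom (adjusted p = 0.0587). Without tumor-retained libraries 3 and 4, Klf3 (-0.83, adjusted p = 0.0748) and Gzma (2.59, adjusted p = 0.0873) no longer passed. Ly6c2 was above tumor-retained cells in egressed cells by 0.74 without passing, beside a list median of 0.64. In egressed against spleen cells Ly6c2 was 0.44 beside a list median of -0.29. In tumor-retained against spleen cells it was -0.30 beside -0.94.

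**Figure D5:**
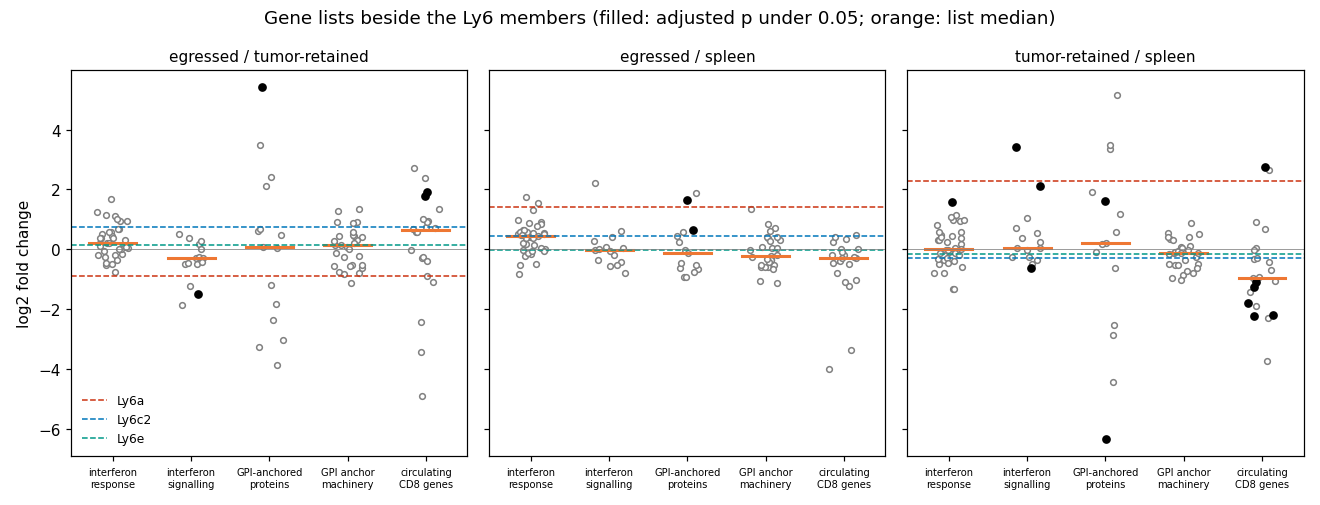
Log2 fold change of each tested gene of 5 lists (points, spread sideways at random; filled at adjusted p under 0.05) in the 3 comparisons, with list medians in orange and the values of Ly6a, Ly6c2 and Ly6e as dashed lines. Ly6a (2.29) lies above most listed genes in tumor-retained against spleen cells. Ly6c2 (0.74) lies near the median of circulating CD8 genes (0.64) in egressed against tumor-retained cells. It lies apart from that median in egressed against spleen (0.44 beside -0.29) and tumor-retained against spleen cells (-0.30 beside -0.94).

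Likeness was measured as Pearson's r of log2 CPM over the 12 libraries among 9403 genes of at least 10 CPM in a group, as a description, since libraries of a group share their sort. The genes most like Ly6a were Amica1 (0.988), Klrd1 (0.964), Rgs1 (0.960), Odc1 (0.960) and Dusp5 (0.953). The means of Amica1 stood in the same order. Its level was 94.1 ± 6.9 CPM in spleen, 178 ± 22.1 in egressed and 252 ± 42.9 in tumor-retained cells (SD, n = 4). Those most like Ly6c2 were Phf11a (0.898), Hcst (0.895), Gmfg (0.892), Trmt1l (0.890) and Hsd11b1 (0.889), and those most like Ly6e were Utp6 (0.852), Mdh1 (0.851), Cd96 (0.850), Lamtor2 (0.850) and Dyrk2 (0.846). For Ly6c1 they were Cttn (0.932), Lamb1 (0.931), Lyz2 (0.920), Golt1b (0.912) and Ptprn (0.906). Among the members themselves, r was 0.64 between Ly6c2 and Ly6e, -0.14 between Ly6a and Ly6c2, -0.18 between Ly6a and Ly6e and -0.46 between Ly6c1 and Ly6c2.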

How the data were processed

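RNA sequencing counts came from 12 libraries of sorted mouse CD8 T cells, 4 per group, made with a SMART-Seq v4 kit for low input, per the labels' protocols. The authors deposited raw counts per gene symbol and a second table of log2 normalized values. The deposited log2 values equal log2(count / size factor + 1) to within 5.1e-09 and were not used further. Tools listed in the submitters' processing notes, without their roles, are STAR 2.7.3a, Bowtie2 2.5.1, cutadapt 2.5 and Cufflinks 2.2.1, with the build mm10; nothing in the sources used here gives the counting program, its annotation or strand handling. The kit adds no molecular identifiers.

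Counts were filtered with filterByExpr (21457 genes kept), scaled with TMM and fitted with edgeR 4.0.16 in R 4.3.3, as 1 quasi-likelihood model of 3 groups without a block, with Benjamini-Hochberg adjustment over all genes at 0.05; the fit was tested on simulated data. Means and SDs are of TMM-scaled CPM. Ratios used counts + 0.5 and exact permutation tests (scipy 1.17.1). Positions and sequences came from GENCODE M21 (mm10), which may not be the authors' annotation. Alternatives included DESeq2 1.42.0, limma 3.58.1 voom, other scalings and filters, a replicate block and each library left out.

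The members, the lists and the libraries left out were chosen with earlier results of these data known. Named genes are the members, family genes of at least 1 CPM in a group, list members called in any comparison or among the 4 most abundant, and the 5 genes most like each member; not all are described, and 1 of them is not reported here.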

Additional observations from a re-analysis of the deposited data

Results flagged for a closer look

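In groups of 4 libraries, a library was picked out where its gap to the nearest other exceeded Dixon's 95% limit of the group's range. This held for 16 of 60 groups checked over the members, the family genes and the Ly6c1 share, and chance picks about 1 in 20 where values follow a normal spread. In 8 of the 16 the other 3 libraries were at 0, where any count meets the limit, so the 1 in 20 does not apply to them. None of the 16 was the level of a member. The Ly6c1 share of Ly6c1 and Ly6c2 counts was 0.656% in egressed library 4, against at most 0.112% in the other 3. In single tumor-retained libraries, Gpihbp1 reached 34.4 CPM and Ly6d 13.6 CPM (both library 3), Lypd4 4.17, Pate3 4.06, Lypd8 3.48 and Lynx1 1.71 CPM (all library 2), and Ly6k 2.58 CPM (library 1). In single egressed libraries, Lynx1 reached 9.16 CPM (library 3), Cd59a 3.79 and Pate3 0.508 CPM (library 1), and Pate1 2.92, Pate2 1.90 and Ly6d 0.0379 CPM (library 2), with Lypd8 at 0.0782 CPM in library 1. In spleen, Gpihbp1 was 0.146 CPM in library 4 and 0 in the other 3. A level of 3 counts corresponds to 0.0889 to 0.125 CPM.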

How the results depend on the processing

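Of 267 refits of the members, 227 kept their direction and their side of the threshold. Ly6a in tumor-retained against spleen cells passed throughout. Ly6a in egressed against tumor-retained cells missed the threshold with library size alone (-0.79, adjusted p = 0.0627), without a count filter (-0.92, 0.0615), with limma voom (-0.85, 0.0507), with a replicate block (-0.86, 0.0802), with only these groups (-0.88, 0.175) and without egressed libraries 3 and 4 and tumor-retained library 1, which detect the fewest genes (-0.71, 0.0773); with single libraries left out it ranged from -0.99 to -0.71. Ly6a in egressed against spleen cells missed it with voom (1.42, 0.0566) and ranged from 1.31 to 1.53 with libraries left out. Ly6c2 in egressed against tumor-retained cells passed with DESeq2 (0.72, 0.0399) and without those 3 libraries (1.15, 0.0225). It ranged from 0.61 to 1.00 with single libraries left out and from 0.51 to 1.15 over all settings. In tumor-retained against spleen cells Ly6c2 passed without those 3 (-0.54, 0.0494) and ranged up to -0.085 over all settings. Ly6c1 changed sign without tumor-retained libraries 3 and 4 (3.26 and -2.12), and in egressed against spleen cells with voom (-1.05) and without the 3 libraries (-0.087), ranging from -0.65 to 1.52. Ly6e in egressed against spleen cells changed sign with relative log expression factors (0.13), library size alone (0.10), a minimum of 1 CPM (0.059), DESeq2 (0.13) and only these groups (0.037), ranging from -0.12 to 0.077; in tumor-retained against spleen cells it did so with relative log expression factors (0.0084) and DESeq2 (0.0085). The causes were not tested.

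Genes called, 235, 79 and 518 for egressed against tumor-retained, egressed against spleen and tumor-retained against spleen, became 1904, 507 and 1763 with DESeq2, 78, 23 and 295 with a replicate block, and 13, 230 and 1304 with only the groups compared. Voom gave 209 and 1197 and no filter 41 and 342 in the spleen comparisons. Without the 3 libraries, 442 and 2347 passed in the comparisons with tumor-retained cells. With single libraries left out, counts ranged from 95 to 487, 5 to 123 and 223 to 645. After subtracting group means, libraries sharing a number correlated between -0.124 and 0.117. With so few libraries a group, this cannot tell whether libraries sharing a number came from the same mouse. The deposited sample names carry the same numbers in every group. Of 1848 counts over gene lists, 262 moved by more than 1.5 times or to or from 0. Counts that were 0 in both settings were taken as unmoved. Direction was kept by 174 of 180 ratio values and 26 of 27 differences of the Ly6c1 share. The share difference between egressed and spleen cells ranged from -0.0636 to 0.155 points with a library left out. Ratios with Ly6c1 changed sign without egressed or tumor-retained library 3: Ly6a to Ly6c1 in egressed against tumor-retained cells ranged from -0.76 to 2.25, Ly6c1 to Ly6c2 and Ly6c1 to Ly6e in egressed against spleen cells from -2.87 to 0.087 and from -2.38 to 0.67, and in tumor-retained against spleen cells from -0.28 to 2.23 and from -0.30 to 1.96. At 3 counts a gene stands at 0.0889 to 0.125 CPM, which limits what can be said of Ly6c1.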
